A study of Mus musculus with 6 samples.

Results

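The brush-border peptidases described here are 9 genes of the 21397 listed in the expression table: Anpep, Enpep, Xpnpep2 and Dpp4, which act at the amino end of peptides, Ace and Naaladl1, the meprin subunit genes Mep1a and Mep1b, and Ggt1. They were picked by name as peptidases of the enterocyte surface, and the rule that picks them uses no measured value, but earlier results of these data were known when they were chosen. All 9 were found in the table, and all 9 had a mean FPKM of at least 1 and entered the test, which covered 10551 genes. FPKM is the number of fragments on a gene scaled to the length of that gene and to the depth of each library, so that levels of different genes can be set side by side.

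Enterocytes carry a dense border of microvilli, and peptidases anchored in that membrane finish the digestion of protein in the gut lumen. Amino- and carboxypeptidases shorten the peptides left by pancreatic proteases, and the resulting di- and tripeptides and amino acids enter the cell through transporters in the same membrane. Several of these enzymes also process peptide hormones, such as angiotensins and incretins. Their expression is a feature of differentiated enterocytes of the villus rather than of crypt cells.

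Organoids were grown from small intestinal crypts of Fpr2f/f mice, in which Fpr2 is flanked by loxP sites and no Cre is named, so that both groups carry the same floxed allele. They were exposed for 5 days to MMK-1 at 1 μmol/L, a peptide made to activate the receptor FPR2, or to the vehicle, 0.1% DMSO. Each group had 3 libraries of total RNA, and per the study each sample holds organoids of 3 mice and the crypts were ileal. For the MMK-1 libraries, the dose in the treatment field is in mmol/L, whereas the protocol and the methods give μmol/L. The methods give an age of 8 to 12 weeks for the mice of all experiments, matched for sex and age between groups. The p-values measure the spread between these libraries, which may be technical in part.

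The libraries held 35512739 to 37537463 fragments. Replicates were compared gene by gene by chi-square, and the statistic divided by its degrees of freedom was 2.78 to 4.78 among the controls and 3.46 between MMK-1 replicates 1 and 2. MMK-1 replicate 3 stood apart from the other MMK-1 libraries, at 34.4 and 29.4, and results are therefore also given without it. Enterocyte markers were abundant in both groups, with a summed FPKM of 11094.5 to 11185.8 in the control libraries and 6409.3 to 6849.6 in the MMK-1 libraries.

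Every brush-border peptidase was lower in the MMK-1 organoids. The summed FPKM of the 9 genes was 1548, 1529.4 and 1520.5 in the controls and 356.7, 365.2 and 372.9 after MMK-1, so the MMK-1 sum was 0.238 of the control sum. All 9 genes fell at an adjusted p of at most 0.05 (limma-trend on log2(FPKM + 1), Benjamini-Hochberg over all genes tested), against 24.7% of all genes tested. When limits of the size the study used were applied (fold change 2 or more on the log2(FPKM + 1) scale, p no greater than 0.05), again all 9 were lower, against 3.65% of all genes. None of the 9 was higher with MMK-1, while 48.5% of all genes tested were. In all 9, every MMK-1 library lay below every control library, which held for 26.3% of all genes. The median log2 difference of the 9 genes was -1.87, beside 0.13 for all genes tested. In bulk RNA, fewer cells of a type and less RNA per cell cannot be told apart.

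**Figure D1:**
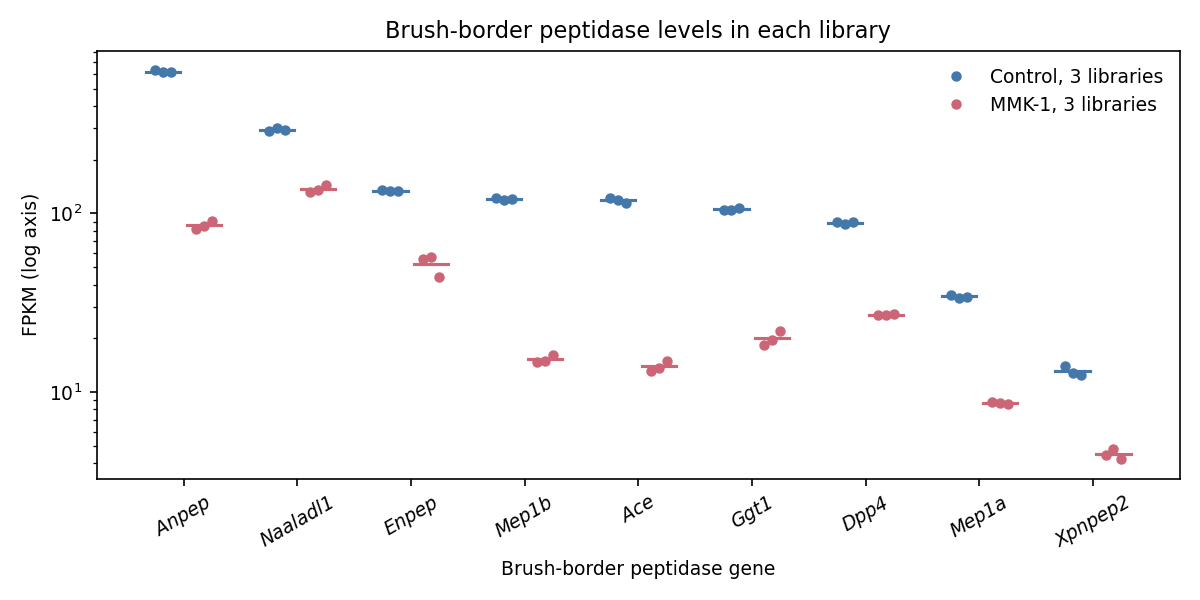
FPKM on a log axis of the 9 brush-border peptidase genes, ordered by their control level, in the 3 control libraries (blue) and the 3 MMK-1 libraries (red). Points are libraries and short lines are group means, and in each gene the red points lie below the blue points, from Anpep at 622.8 against 85.9 to Xpnpep2 at 13.1 against 4.49.

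Among the enzymes that act at the amino end, Anpep encodes aminopeptidase N (CD13), which removes neutral residues and is an abundant protein of the microvillus membrane. The gene lies on the minus strand at chr7:79821803-79861059 (mm10, GENCODE vM21). Its FPKM was 633.8, 619.1 and 615.6 in the controls and 82.3, 84.6 and 90.8 with MMK-1. The groups were far apart, and the means of 622.8 ± 9.64 and 85.9 ± 4.40 (SD, n = 3) give a 7.25-fold lower level. On the log2 scale the difference was -2.84 with a standard error of 0.0448 (95% confidence interval -2.95 to -2.74, limma adjusted p = 1.2e-09). By log2 difference Anpep was 17th from the bottom of the 10551 genes tested.

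Enpep encodes aminopeptidase A, which removes acidic residues and turns angiotensin II into angiotensin III. It lies on the minus strand at chr3:129269175-129332720. FPKM was 135.9, 133.5 and 133.2 in the controls and 55.3, 56.8 and 44.2 with MMK-1. The third MMK-1 library was the lowest here, whereas for Anpep it was the highest of its group. Enpep fell 2.58-fold in the mean, and the log2 difference of -1.36 (SE 0.0848, limma adjusted p = 1.5e-06) became -1.24 without MMK-1 replicate 3. With a coefficient of variation of 13.3% in the MMK-1 group, it varied more between those libraries than any other member did.

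Xpnpep2, on the plus strand at chrX:48108725-48136981, encodes the membrane-bound aminopeptidase P, which frees an amino-terminal residue that precedes proline. It had the lowest levels of the 9 genes, with FPKM of 14.0, 12.8 and 12.5 in the controls and 4.45, 4.81 and 4.22 with MMK-1. These values rest on 2550, 2340 and 2289 fragments in the controls and on 771, 843 and 765 with MMK-1. The mean level was 2.91-fold lower, with a log2 difference of -1.36 (SE 0.0597, limma adjusted p = 1.9e-07). Because a pseudocount of 1 was added, that difference understates the plain log2 ratio of means of Xpnpep2, which was -1.54.

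Dpp4 encodes dipeptidyl peptidase 4 (CD26), which releases dipeptides that end in proline or alanine and inactivates the incretins GLP-1 and GIP. It spans chr2:62330073-62412231 on the minus strand. FPKM was 89.7, 87.6 and 89.3 in the controls and 27.0, 27.2 and 27.3 with MMK-1. Replicates of Dpp4 differed little, with coefficients of variation of 1.27% and 0.51%, and the level was 3.27-fold lower. The log2 difference was -1.67 (SE 0.036, limma adjusted p = 4.2e-09), and -1.68 without MMK-1 replicate 3.

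Ace encodes angiotensin-converting enzyme, a dicarboxypeptidase that turns angiotensin I into angiotensin II and digests peptides in the gut lumen. The gene lies on the plus strand at chr11:105967945-105989964. Control FPKM was 121.7, 119.7 and 114.9, and MMK-1 FPKM was 13.1, 13.7 and 15. Of the 9 genes Ace fell the most, 8.5-fold in the mean, with a log2 difference of -3 (SE 0.0541, 95% confidence interval -3.13 to -2.88, limma adjusted p = 1.9e-09). Its interval overlapped those of Mep1b and Anpep, and the order of these 3 genes was not tested.

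Naaladl1 encodes a peptidase of the ileal brush border that is related to glutamate carboxypeptidase II. It lies on the plus strand at chr19:6105782-6115792. FPKM was 290.2, 299.8 and 293.8 in the controls and 132.6, 134.9 and 144.6 with MMK-1. This was the smallest fall of the 9, to 46.6% of the control level, and the log2 difference was -1.10 (SE 0.0434, 95% confidence interval -1.2 to -1, limma adjusted p = 1.1e-07). That interval overlapped the one of Enpep, -1.55 to -1.16, and the order of these genes was not tested. In the order of log2 differences Naaladl1 stood 306th from the bottom, and Enpep 192nd.

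Mep1a and Mep1b encode the alpha and beta subunits of meprin, a metalloendopeptidase of the astacin family that cuts within peptides. Mep1a lies on the minus strand at chr17:43474324-43502812, and Mep1b on the plus strand at chr18:21061923-21100199. Mep1b FPKM was 122.8, 118.5 and 120.2 in the controls and 14.8, 15 and 16.2 with MMK-1. Mep1a FPKM was 35.1, 33.8 and 34.1 in the controls and 8.77, 8.66 and 8.56 with MMK-1. Both were lower in every MMK-1 library, Mep1b 7.87-fold and Mep1a 3.96-fold, with log2 differences of -2.90 (SE 0.0451, limma adjusted p = 1.2e-09) and -1.87 (SE 0.040, limma adjusted p = 4.2e-09). The beta subunit thus fell by more than the alpha subunit. The ratio of Mep1b to Mep1a FPKM was 3.50, 3.51 and 3.52 in the controls and 1.69, 1.73 and 1.89 with MMK-1, and the groups did not overlap (two-sided exact permutation p = 0.1, the smallest that 3 against 3 libraries allow).

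Ggt1 encodes gamma-glutamyltransferase 1, which cleaves extracellular glutathione at its gamma-glutamyl bond and so works beside the peptidases on cysteinylglycine and other products. It lies on the plus strand at chr10:75561604-75586200. FPKM was 104.8, 104.7 and 106.9 in the controls and 18.4, 19.6 and 22.0 with MMK-1. The level was 5.27-fold lower, and the log2 difference was -2.35 (SE 0.0615, limma adjusted p = 1.1e-08). Without MMK-1 replicate 3, which was the highest library of its group, it was -2.41.

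**Figure D2:**
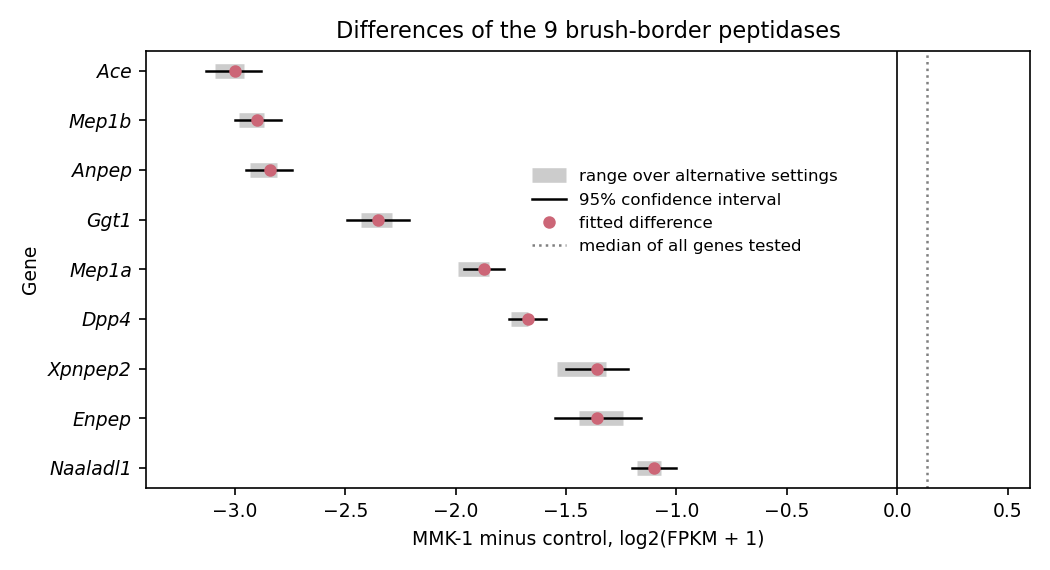
Fitted MMK-1 minus control differences in log2(FPKM + 1) of the 9 genes (red points, 3 libraries per group), with 95% confidence intervals (black lines) and the range over the alternative settings (grey bars). All intervals lie below 0, from -3 for Ace to -1.10 for Naaladl1, and the dotted line marks the median of all genes tested, 0.13.

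An exact permutation test of each gene alone gave p = 0.1 for all 9, the smallest that the design allows, so the calls rest on the fit across all genes. A pair of genes antisense to members share exonic bases with them in GENCODE, Gm11651 with Ace over 295 bases and Gm13561 with Dpp4 over 232 bases. Whether counting used strand is not given in the sources used here, so reads of such partners cannot be told apart there. Gm11651 had a mean FPKM of 0.0286 over the 6 libraries, far below Ace, and Gm13561 was not analysed here.

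Since the falls were unequal, the make-up of the set differed between the groups. In the controls the order of FPKM was Anpep, Naaladl1, Enpep, Mep1b, Ace, Ggt1, Dpp4, Mep1a and Xpnpep2, and only the neighbours Mep1b and Ace overlapped between libraries. With MMK-1 it was Naaladl1, Anpep, Enpep, Dpp4, Ggt1, Mep1b, Ace, Mep1a and Xpnpep2, again with only Mep1b and Ace overlapping. Naaladl1 and Anpep had exchanged the first places.

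Anpep made up 40.6% ± 0.264 (SD, n = 3) of the summed FPKM of the 9 genes in the controls and 23.5% ± 0.716 with MMK-1. The share of Naaladl1 was 19.2% ± 0.436 in the controls and 37.6% ± 1.00 with MMK-1. Enpep went from 8.76% to 14.3%, although its MMK-1 libraries spread from 11.8% to 15.5%. Mep1b and Ace had smaller shares with MMK-1, at 4.20% and 3.82% against 7.86% and 7.75%, while Mep1a had 2.37% against 2.24%. A larger share is not a higher level, since all 9 genes fell.

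**Figure D3:**
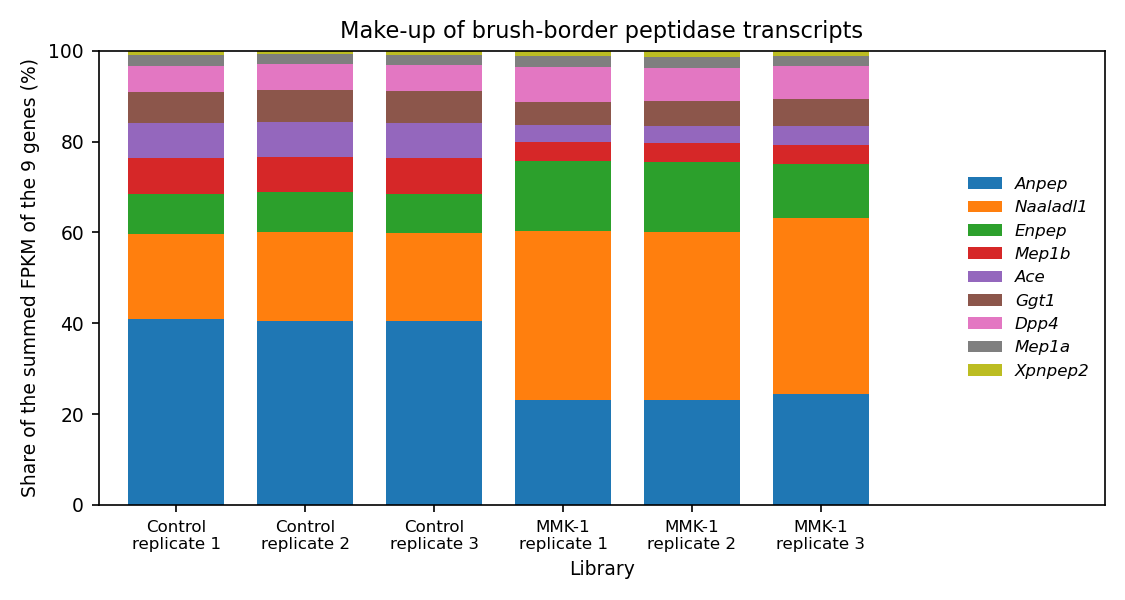
Share of each of the 9 genes in their summed FPKM (%) in each of the 6 libraries, as stacked bars. Anpep takes 40.5% to 40.9% of the control bars and 23.1% to 24.4% of the MMK-1 bars, where Naaladl1 takes the largest share, 36.9% to 38.8%.

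Ratios between members were also computed within each library. Anpep FPKM was 2.18, 2.07 and 2.10 times that of Naaladl1 in the controls and 0.621, 0.627 and 0.628 times with MMK-1. The ratio of Anpep to Enpep, the neutral and the acidic aminopeptidase, was 4.62 to 4.66 in the controls and 1.49 to 2.06 with MMK-1. Ace was above Dpp4 in every control library, with ratios of 1.29 to 1.37, and below it in every MMK-1 library, with ratios of 0.486 to 0.551. Each of these ratios separated the groups without overlap, with a two-sided exact permutation p of 0.1, the smallest possible.

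When every tested gene was compared with Anpep, by the root mean square difference of centred log2 values over the 6 libraries, the nearest was another member, Mep1b, at 0.0389. Akr1c19, an aldo-keto reductase gene, followed at 0.0451 with mean FPKM of 400.5 in the controls and 57.2 with MMK-1. The third was Slc5a4b, of the sodium-glucose transporter family, at 0.0524 with 58.7 and 7.21 FPKM. Ace was in place 7, Ggt1 in place 31 and Naaladl1 in place 304. This likeness describes the libraries at hand and includes the difference between the groups.

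Since the 9 genes fell together, the 250 bases before the annotated starts are shown for some members. Anpep had the highest control level, and Ace the largest fitted fall, with an interval that overlapped those of Mep1b and Anpep. Dpp4 and Ggt1 held a searched motif in those bases. The sequences are from RefSeq on GRCm38.p6, written 5′ to 3′ on the strand of the gene. RefSeq windows were used for 7 of the 9 genes, 11 windows in all, and Mep1b and Naaladl1 were not searched. The first of 4 is shown for Ggt1 and the first of 2 for Ace. Capitals mark matches, on either strand, to 4 motifs of factors known in enterocytes: GTTAATNAT (HNF1), CAAAGTCCA (HNF4), TTTATNG (CDX factors) and, for the zinc-finger factors named after their core letters, AGATAA. No matches overlap in these windows.
Anpep, chr7:79848211-79848460, minus strand: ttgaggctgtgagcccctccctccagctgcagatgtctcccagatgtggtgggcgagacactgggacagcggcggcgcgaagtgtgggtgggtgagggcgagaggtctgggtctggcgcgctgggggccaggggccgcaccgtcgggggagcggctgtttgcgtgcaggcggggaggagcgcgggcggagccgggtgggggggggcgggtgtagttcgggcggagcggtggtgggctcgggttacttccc
Ace, chr11:105967698-105967947, plus strand: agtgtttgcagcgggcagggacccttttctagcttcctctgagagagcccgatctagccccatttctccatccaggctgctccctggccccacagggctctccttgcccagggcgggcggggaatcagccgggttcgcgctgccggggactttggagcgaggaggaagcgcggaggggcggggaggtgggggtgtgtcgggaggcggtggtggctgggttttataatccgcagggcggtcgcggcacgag
Dpp4, chr2:62412232-62412481, minus strand: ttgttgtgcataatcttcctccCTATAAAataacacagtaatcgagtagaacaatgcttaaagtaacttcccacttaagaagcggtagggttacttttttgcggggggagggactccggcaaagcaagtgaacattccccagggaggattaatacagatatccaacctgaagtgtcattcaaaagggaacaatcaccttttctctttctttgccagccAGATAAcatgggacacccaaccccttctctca
Ggt1, chr10:75563882-75564131, plus strand: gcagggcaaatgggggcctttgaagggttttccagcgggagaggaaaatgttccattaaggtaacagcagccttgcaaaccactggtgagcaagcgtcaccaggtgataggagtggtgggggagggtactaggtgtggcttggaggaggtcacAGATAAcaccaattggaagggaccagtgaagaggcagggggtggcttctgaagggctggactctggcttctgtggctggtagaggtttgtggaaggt

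Dpp4 held AGATAA beginning 32 bases before the start and CTATAAA, the CDX letters on the other strand, beginning 228 bases before it. The first window of Ggt1 held AGATAA beginning 97 bases before the start. In Mep1a the CDX letters TTTATGG began at base 14 counted from the start, within the transcribed part of the window. No letters of HNF1 or HNF4 were found in the windows searched, which leave out Mep1b and Naaladl1. The windows of Anpep, Ace, Enpep and Xpnpep2 held none of the 4 motifs. Of all 32851 windows of 300 bases, 11.2% held AGATAA, 10.9% the CDX letters, 0.801% the HNF1 letters and 0.475% the HNF4 letters. A match describes the letters only and is not evidence of binding. The base composition before the start differed widely among the members searched, from 72.8% G and C in Anpep to 41.6% in Mep1a.

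Peptidases elsewhere in the cell and at its surface were compared as background, in lists that are not made of members. Of 34 other membrane peptidases, 27 were in the table and 17 were tested. Of these, 4 were lower (23.5%) and 8 higher with MMK-1, close to the 24.7% lower and 48.5% higher of all genes tested. Their median log2 difference was 0.02. With upper-quartile scaling the counts were 6 lower and 6 higher.

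Further enzymes of the brush border were among the genes of that list that fell. Dpep1, a dipeptidase that cleaves cysteinylglycine, fell from 153.6 ± 3.00 to 32.0 ± 0.898 FPKM (SD, n = 3), with a log2 difference of -2.23. Mme, which encodes neprilysin, fell from 49.5 ± 0.632 to 15.2 ± 2.33 FPKM, with a log2 difference of -1.65.

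The largest rises were small beside these falls. Lnpep, a transmembrane aminopeptidase of endosomes, rose by 0.63 on the log2 scale, Adam10, a sheddase, by 0.54, and Prss8, the serine protease prostasin, by 0.53. Tmprss15, which encodes enteropeptidase, the activator of trypsinogen, had 0 fragments in all 6 libraries. Cltrn, which encodes a partner of amino acid transporters, had at most 1 fragment in each control library and 6, 0 and 2 fragments with MMK-1, and was not tested.

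Of 43 intracellular peptidases, 42 were tested, and 15 were lower (35.7%), 18 were higher and 9 were not called. The shares over all genes tested were 24.7% lower and 48.5% higher. The median log2 difference of the list was 0.05. Cndp2, a cytosolic dipeptidase of broad specificity, fell from 228.3 ± 3.09 to 64.7 ± 1.58 FPKM (SD, n = 3). Cndp1, its carnosine-cleaving relative, fell by 1.22 on the log2 scale, and Pepd, which encodes the prolidase that splits dipeptides ending in proline, by 1.19. The largest rises were in Ctsl, Ctsh and Aopep, at 1.02, 0.71 and 0.52, of which Ctsl and Ctsh encode lysosomal cathepsins. With upper-quartile scaling the counts were 18 lower and 15 higher.

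Transporters of peptides and amino acids, in a list that also holds basolateral carriers such as Slc7a8, were mostly lower. Of 16 listed genes 14 were tested, of which 12 were lower (85.7%) and 2 higher, against 24.7% lower and 48.5% higher of all genes tested. The median log2 difference of the list was -0.94. Slc15a1 encodes PEPT1, the proton-coupled carrier of di- and tripeptides. Its FPKM was 50.5, 51.1 and 49.0 in the controls and 3.82, 3.58 and 3.79 with MMK-1, a 13.5-fold lower level. The log2 difference of Slc15a1, -3.44 (SE 0.0434, limma adjusted p = 4.9e-10), was below that of every one of the 9 peptidases.

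Slc36a1, a proton-coupled carrier of small amino acids, fell by 1.95 on the log2 scale, and Slc7a8, a basolateral exchanger of neutral amino acids, by 1.77. Slc6a19 encodes B0AT1, the main sodium-coupled carrier of neutral amino acids, and had FPKM of 34.9, 35.1 and 38.0 in the controls and 31.8, 31.1 and 27.2 with MMK-1. Its log2 difference was -0.25 (limma adjusted p = 0.0064), small beside that of Anpep. The genes that rose were Slc38a2, by 1.41, and Slc1a5, by 0.70, which encode carriers of glutamine and other neutral amino acids.

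**Figure D4:**
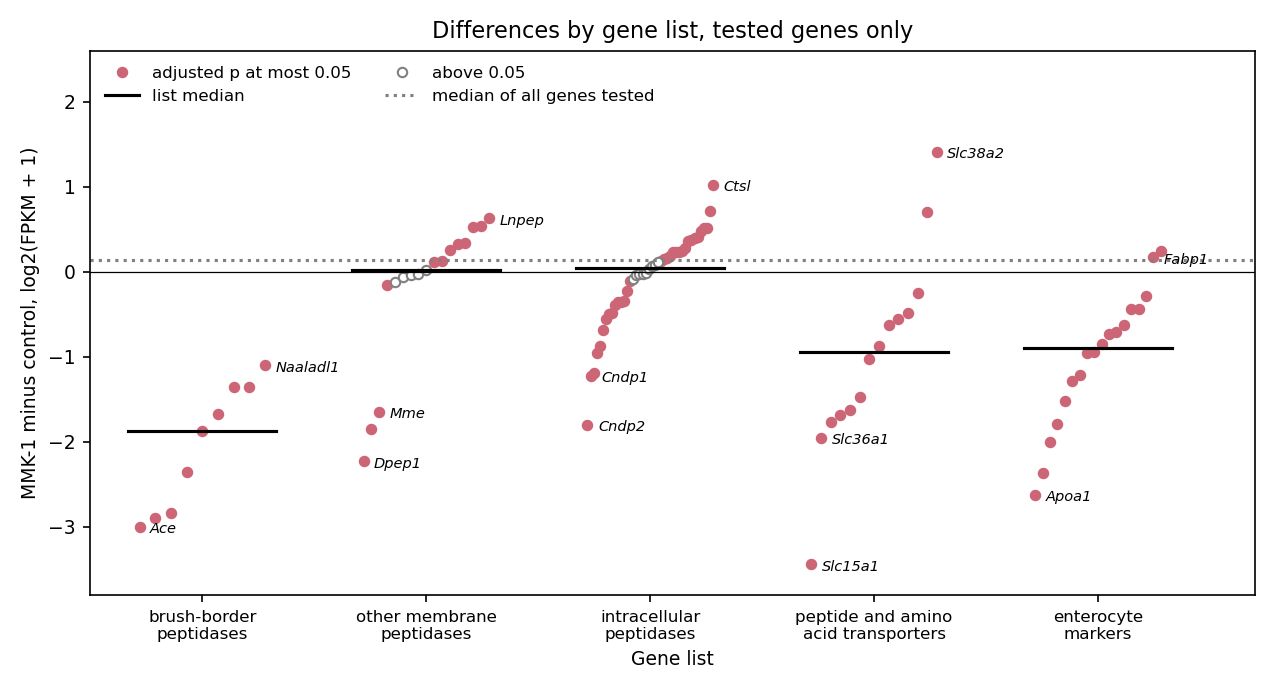
MMK-1 minus control differences in log2(FPKM + 1) of the tested genes of 5 lists, each point a gene and each black line the median of its list, with filled points at an adjusted p of at most 0.05 by limma. The 9 brush-border peptidases lie between -3 and -1.10 (median -1.87), the other membrane and the intracellular peptidases lie on both sides of 0, and the transporters and enterocyte markers lie mostly below it (medians -0.94 and -0.89).

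Markers of cell types also differed between the groups, in both directions, and their part in the result was not tested. Of 18 enterocyte markers, 16 were lower and 2 higher, beside 24.7% and 48.5% of all genes tested. Their median log2 difference was -0.89, with a range of -2.62 to 0.24. Fabp2, a fatty acid-binding protein gene, fell from 1428 ± 39.8 to 357 ± 23.3 FPKM (SD, n = 3), and Sis, the sucrase-isomaltase gene, from 1689.5 ± 9.18 to 939.1 ± 26.7. Fabp1, the gene of the liver-type fatty acid-binding protein, rose from 2218.5 ± 50.9 to 2505.9 ± 158.5 FPKM. The enterocyte markers moved by unequal amounts, from a 6.15-fold lower level of Apoa1 to slight rises of Fabp1 and Slc2a5. Their summed FPKM with MMK-1 was 0.593 of that of the controls, a sum in which abundant genes such as Fabp1 and Sis weigh heavily.

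All 7 stem cell markers were higher, with a sum of 71.8 to 73.9 FPKM in the controls and 403.1 to 429.8 with MMK-1, as were all 6 proliferation markers (192.1 to 195 against 313.7 to 326.6) and all 6 Paneth cell markers (408.6 to 456.9 against 1300.1 to 1431.6). Olfm4 led the stem cell markers at 4.35 ± 0.0705 against 173.1 ± 12.4 FPKM. Of 7 goblet cell markers 5 were higher and 2 lower (sum 1377.4 to 1443.5 against 1404.3 to 1531.1), and of 6 enteroendocrine markers 4 were higher (294.2 to 309.6 against 418.6 to 428.5). For comparison, 48.5% of all genes tested were higher and 24.7% lower at the same threshold. None of the 5 tuft cell markers reached the level for testing, with sums of 1.14 to 1.23 and 1.65 to 1.87.

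Anpep, Ace, Dpp4 and Enpep are also known in endothelium, stroma or leukocytes, so markers of those cells were examined. Summed FPKM of 8 immune markers in the table was 6.19 to 6.74 in the controls and 2.46 to 3.3 with MMK-1, with Itgax at 0 fragments in all libraries and Ptprc at no more than 3. Both immune markers that were tested were lower, Cd68 at 3.17 against 1.15 FPKM and Itgam at 2.36 against 0.938. The 5 endothelial markers in the table summed to 1.06 to 1.12 and 2.04 to 2.44 FPKM, with Kdr at 0 fragments throughout and Egfl7 alone tested and higher. The 9 fibroblast and pericyte markers in the table summed to 5.80 to 6.26 and 3.65 to 5.24, most of it Vim, which was lower (limma adjusted p = 0.049) although its groups overlapped, and Pdgfrb was at 1.10 and 0.265.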

How the data were processed

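RNA was sequenced as 150-bp paired reads in 6 libraries. The authors deposited FPKM values per gene. The submitters' processing notes name HISAT2, HTSeq, R 3.2.0, DESeq2 and mm10, with no roles, and the annotation was not given in the sources used here. Positions come from GENCODE vM21 and promoter windows from RefSeq, both on GRCm38, the assembly of mm10.

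A mean FPKM of at least 1 was required for testing by limma-trend (limma 3.58.1, R 4.3.3) on log2(FPKM + 1), without a block, with Benjamini-Hochberg adjustment. The pseudocount of 1 understates changes of low genes. Whole fragments (within 0.02) were recovered from the FPKM steps for 99.99% of genes, and limma-voom on them called 2588 genes lower and 5116 higher. Fits were tested on simulated data. Python 3.11.15, pandas 2.3.3, numpy 2.4.6 and matplotlib 3.10.9 were used.

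Members, lists and motifs were chosen with earlier results of these data known. Genes named were the 9 members, the 3 largest called rises and falls in each list, Cltrn, Slc15a1 and Slc6a19, the 3 genes nearest to Anpep and up to 3 abundant tested markers per cell type, not all given singly, and a result of this rule is not reported here. Kdr, Itgax, Ptprc, Pdgfrb and Tmprss15 were named after their values were seen. Alternatives covered scaling, pseudocount, filter, block, replicates left out, unit and threshold.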

Additional observations from a re-analysis of the deposited data

How the results depend on the processing

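All 9 brush-border peptidases stayed lower, and none became higher, under upper-quartile scaling, a pseudocount of 0.1, no filter on low values, a replicate block, limma-voom on fragments, each replicate left out and the fold threshold. Each kept its direction and its call in 11 of 11 alternatives, with a largest adjusted p of 0.00017 (limma, Enpep), and Enpep ranged from -1.44 to -1.24 on the log2 scale. Over all genes, 2606 were lower and 5118 higher as reported, 3291 and 4395 with upper-quartile scaling, and 2365 to 2947 and 4702 to 5186 with each replicate left out.

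With a fold change of 2 or more and p no greater than 0.05, 385 genes were lower and 358 higher over all genes. The fold is that of the fitted log2(FPKM + 1) difference, which the pseudocount makes smaller than the plain fold of low genes, so these counts are not those of a plain fold. By this threshold 0 other membrane peptidases were higher (8 at the adjusted p of limma), 3 intracellular peptidases were lower and 1 higher, and 7 transporters were lower and 1 higher. The construction of this threshold, which leaves out smaller changes, lowers such counts.

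No sign of pairing by replicate number was seen, as the correlations of deviations of same-numbered libraries were 0.0253, -0.04 and 0.0279. With 3 libraries per group, and MMK-1 replicate 3 standing apart, these values cannot decide whether the samples were paired. With the replicate block 9 peptidases were lower and the log2 difference of Anpep was -2.84 (limma adjusted p = 6.4e-08), and over all genes 2543 were lower and 5024 higher. With 3 libraries per group, the exact permutation test of a single value cannot go below p = 0.1.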
